A study of Rattus norvegicus with 27 samples.

Results

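Gene expression in the striatum was compared with that in the hippocampus of control rats, with 3 arrays of each region out of the 27 arrays of the series. The members were the arrays titled Striatum_Control (3 pools) and Hippocampus_Control (3 pools), so that the measured values played no part in choosing them. Every pool held tissue of 3 animals, and per the methods the 9 control rats gave all regions, so the regions share animals. The control animals were untreated male Wistar rats, 10 weeks old, with an average blood sugar of 7.64 mmol/l. The series also holds the same regions of diabetic rats of the same age and sex, of which only the striatum and the hippocampus were used here for comparison. These were Wistar rats 4 weeks after 1 intravenous injection of 65 mg/kg streptozotocin, a toxin of the insulin-producing beta cells (average blood sugar 26.34 mmol/l), and Goto-Kakizaki rats, an inbred line derived from Wistar rats that becomes diabetic without treatment (13.9 mmol/l). The prefrontal cortex of the control rats (3 pools) was used to place levels. The authors included the striatum as a region that is easy to dissect and where they presumed no action of insulin.

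The striatum is the input station of the basal ganglia. Most of its neurons are GABAergic medium spiny neurons, which fall into a direct pathway with D1 dopamine receptors and substance P and an indirect pathway with D2 dopamine receptors and enkephalin, and large cholinergic interneurons are scattered among them. The hippocampus is built of glutamatergic granule cells of the dentate gyrus and pyramidal cells of the CA fields, which arise from the pallium and carry basic helix-loop-helix factors of the NeuroD family. Both regions hold glia and vessels, white matter fascicles cross the striatum, and choroid plexus lies next to both.

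Values are given as relative signal, the processed signal of a probe divided by the 75th percentile of all probes on its array, and as log2 fold changes, the mean log2 relative signal in the striatum minus that in the hippocampus, with their standard error (SE). Relative signals of different probes are not comparable with each other, since each probe binds its target with its own strength. A probe was tested when it was well above background on 2 or more of the 3 arrays of either region, and it was called at an adjusted p under 0.05 (limma with Benjamini-Hochberg adjustment) and a difference of at least 2-fold. Of the 41012 probes, 31108 were tested, and 31103 of these gave a value. In the striatum 1283 probes were called higher (4.13%) and 1501 lower (4.83%). The 6 arrays did not overlap between the regions for 2738 of these 2784 probes, beside 14099 of all 31108 tested probes. With normexp background correction (offset 50) in place of the deposited one, 1528 were higher and 629 lower. It moved the median log2 fold change of all tested probes from 0.03 to 0.38. Every median or fold change given below with normexp correction stands beside this 0.38. Where each of the 13016 named genes was represented by its brightest tested probe, 605 genes were higher (4.65%) and 641 lower (4.92%) in the striatum. The median log2 fold change of all these genes was 0.06. At 16-fold or more, 31 genes were higher and 17 lower. Of the called genes, 60 higher genes were not well above background on any hippocampus array and 91 lower genes on no striatum array, and for these the fold is given as a lower bound. In RNA of whole tissue, more cells of a type and more RNA per cell cannot be told apart.

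**Figure D1:**
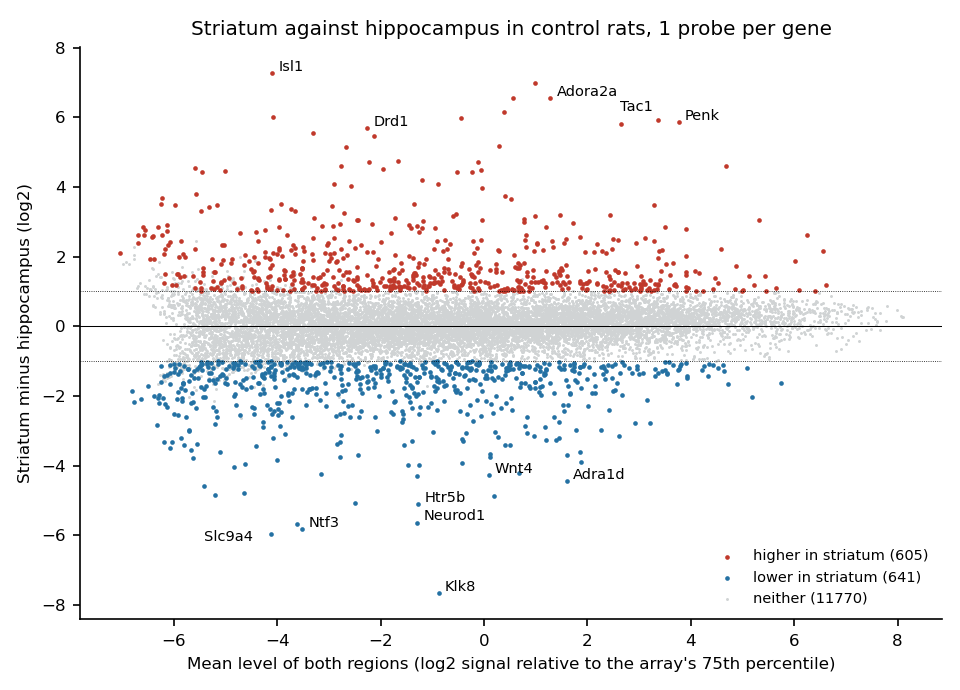
Log2 difference of striatum and hippocampus (vertical axis, 3 pools of each region) against the mean level of both regions (horizontal axis, log2 signal relative to the 75th percentile of the array) for 13016 genes. Red points are the 605 genes called higher and blue points the 641 called lower in the striatum, dotted lines mark 2-fold, and among the labelled genes Adora2a lies at 6.56 and Klk8 at -7.66.

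The arrays were not alike in every respect. Striatum replicate 2 correlated with replicates 1 and 3 at 0.970 and 0.965, against 0.991 between these, while the hippocampus arrays correlated at 0.993 with each other (Pearson's r of log2 signals across probes, which are no independent replicates). The median SD of a probe was 0.261 among striatum arrays and 0.113 among hippocampus arrays on the log2 scale. Well above background were 68.5% to 74.3% of the probes of an array. No slide held control arrays of both regions, so slide and region cannot be told apart in the control rats alone. On hippocampus replicate 3 all 10 tested markers of choroid plexus, the secretory epithelium of the ventricles, were 4.80 to 30.4 times as high as on the highest of the other 5 control arrays. Their summed relative signal, which follows the brightest of them, was 2.42, 6.83 and 2.64 in the striatum pools, against 3.26, 3.64 and 139 in the hippocampus pools. None of them was called, and Ttr, the main secreted protein of this tissue, had 119 relative signal on hippocampus replicate 3 and between 1.39 and 5.38 on the others. Without that array 1277 probes were higher and 1466 lower in the striatum, and without striatum replicate 2 there were 1355 and 1862.

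The 15 largest increases in the striatum included receptors, peptides and signalling proteins of medium spiny neurons. Adora2a, the adenosine receptor of the indirect pathway, had 23.2, 25.2 and 22.9 relative signal in the striatum pools, against 0.277, 0.245 and 0.233 in the hippocampus pools, a log2 fold change of 6.56 (SE 0.38, adjusted p = 3.0e-11). Its striatum pools lay close together and far above every hippocampus pool. Gpr6, a constitutively active receptor of the indirect pathway, gave 14.5, 14.4 and 14.0 in the striatum, against 0.117, 0.197 and 0.155 in the hippocampus (log2 fold change 6.55, SE 0.48, adjusted p = 9.7e-10). Rgs9, whose striatal form speeds the switching off of G proteins, reached 40.4 and 55.2 on striatum replicates 1 and 2, against 0.788, 0.804 and 0.933 in the hippocampus (log2 fold change 5.81, SE 0.43, adjusted p = 1.9e-09), and its value on striatum replicate 3 was left out of the fit as an outlier spot. Drd1, the D1 dopamine receptor of the direct pathway, had 1.15, 1.87 and 1.56 in the striatum, against 0.0208, 0.0403 and 0.0293 in the hippocampus (log2 fold change 5.69, SE 0.37, adjusted p = 1.9e-10). The groups of these genes did not overlap, which was a condition for being chosen among the 15.

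Both peptides that mark the output pathways stood among the 15 largest increases. Penk, the precursor of the enkephalins, had 89.4, 132 and 93.9 relative signal in the striatum, against 1.93, 1.88 and 1.59 in the hippocampus, a log2 fold change of 5.85 (SE 0.26, adjusted p = 4.5e-12). Tac1, the precursor of substance P, had 65.6, 102 and 77.1 in the striatum, against 0.998, 1.44 and 1.57 in the hippocampus (log2 fold change 5.93, SE 0.28, adjusted p = 1.4e-12). In each case the highest pool was striatum replicate 2. Pdyn, the dynorphin precursor of the direct pathway that dentate granule cells also express, differed less, with 24.9, 36.7 and 27.2 in the striatum, against 11.6, 9.33 and 8.61 in the hippocampus (log2 fold change 1.58, SE 0.26, adjusted p = 6.9e-05).

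**Figure D2:**
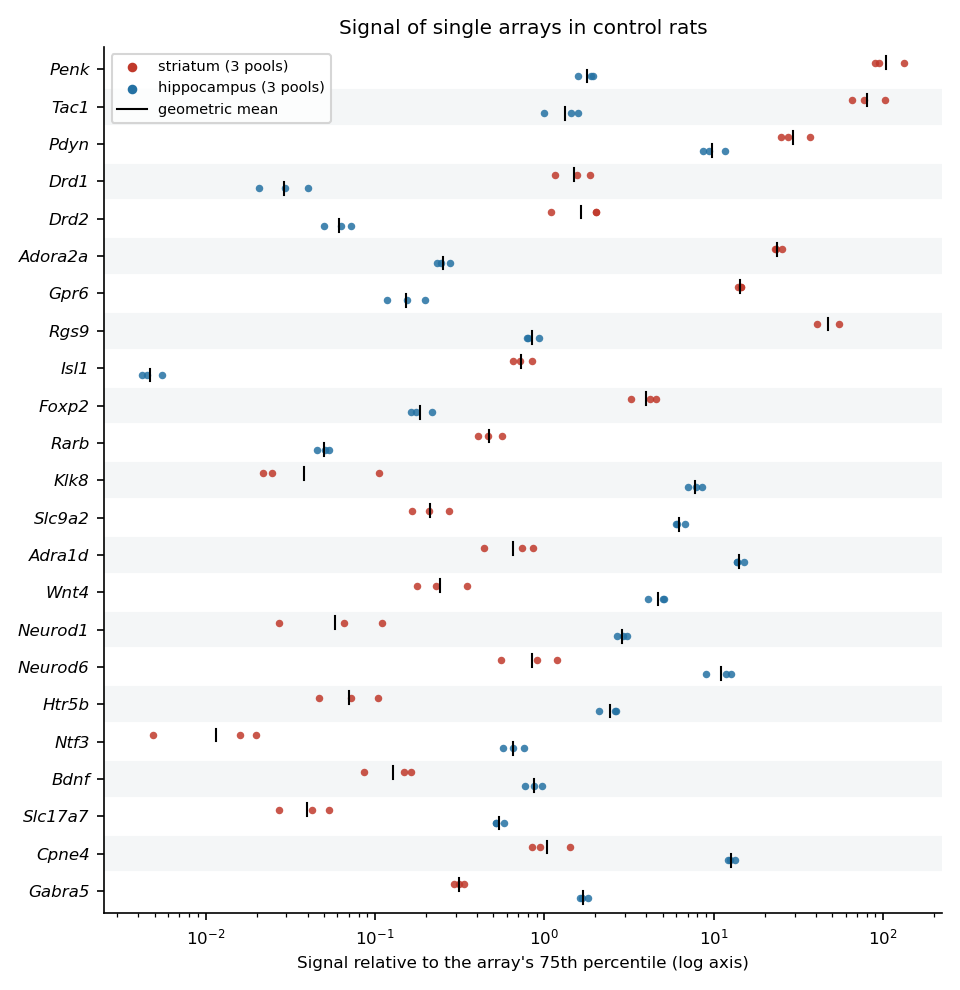
Signal of single genes relative to the 75th percentile of the array (horizontal log axis) in single pools of control rats, striatum (red) above hippocampus (blue) in each row, with black bars for geometric means. The points of the 2 regions are apart in every row shown. For genes taken from the largest increases and decreases this was a condition of choice. Of all 31108 tested probes, 14099 had arrays that did not overlap between the regions. When means are compared, the regions differ by 1.58 on the log2 scale for Pdyn and by 6.56 for Adora2a. Rgs9 has 2 striatum points.

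Other genes among the 15 largest increases were dim or had other known roles. Isl1, a LIM homeodomain factor of direct pathway neurons, was well above background in all striatum pools (0.651, 0.841 and 0.714) and in no hippocampus pool (0.00551, 0.00423 and 0.00452), a difference of at least 40.6-fold (adjusted p = 3.4e-07). Hal, histidine ammonia-lyase, which opens histidine breakdown, was at least 26.3-fold higher (adjusted p = 1.3e-11), with 0.352, 0.623 and 0.485 in the striatum, against 0.00446, 0.00573 and 0.0153 in the hippocampus. Htr1d, an inhibitory serotonin receptor, was at least 38.6-fold higher (adjusted p = 4.4e-11), with 0.588, 0.804 and 0.710 in the striatum, against 0.0135, 0.0175 and 0.0136 in the hippocampus. All 3 genes were dim in the hippocampus, which is why only a bound is given. Dmkn, which encodes the secreted epithelial protein dermokine, had a log2 fold change of 6.16, Tbc1d10c, an inhibitor of calcineurin and Ras signalling in lymphocytes, 5.99, Tulp2 of the tubby-like family 5.48, Tnni3, the cardiac inhibitory troponin, 5.18, and Slc22a3, a low-affinity transporter of monoamines, 5.15, with adjusted p between 4.2e-14 and 1.8e-10. A second probe of Tbc1d10c had a log2 fold change of -0.15 and was not called, so the 2 probes of this gene disagree.

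Of the 25 tested genes of dopamine and cAMP signalling in medium spiny neurons, 19 were higher, 1 was lower and 5 were not called, with a median log2 fold change of 2.63 beside 0.06 over all genes. The counts of this and all following lists stand beside 4.65% higher and 4.92% lower over all genes. Drd2, the D2 dopamine receptor of the indirect pathway, had 2.03, 1.09 and 2.02 relative signal in the striatum, against 0.0632, 0.0503 and 0.0726 in the hippocampus (log2 fold change 4.75, SE 0.55, adjusted p = 8.3e-07), and striatum replicate 2, the lowest of its group, was still above every hippocampus pool. The lower gene was Prkar1b, a regulatory subunit of protein kinase A (log2 fold change -1.21, SE 0.21, adjusted p = 0.00017), and its call ended without striatum replicate 2. Chosen after their values were seen, Ppp1r1b (DARPP-32, which integrates dopamine and glutamate signals) had 3.65, Adcy5 (the main striatal adenylyl cyclase) 3.49, Pde10a (a striatal phosphodiesterase) 3.19 and Gnal (the G protein subunit Golf) 2.86 as log2 fold changes. The other list of medium spiny neuron genes, with 14 tested, held 8 higher and 1 lower, with a median of 1.66. In it Scn4b, a sodium channel subunit, had 115, 146 and 121 in the striatum, against 5.64, 5.14 and 4.75 in the hippocampus (log2 fold change 4.62, SE 0.20, adjusted p = 3.9e-13). Sh3rf2, a ubiquitin ligase, had a log2 fold change of 4.72, Ido1, which breaks down tryptophan, 3.37, the orphan receptor gene Gpr149 3.09, and the lower gene Spon1, an adhesion protein of the matrix, -1.10.

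Transcription factors of the striatal lineage followed with 12 of 19 tested genes higher, 0 lower and a median of 2.62. Foxp2, a forkhead repressor of medium spiny neurons, had 4.56, 3.23 and 4.23 relative signal in the striatum, against 0.162, 0.218 and 0.175 in the hippocampus (log2 fold change 4.43, SE 0.23, adjusted p = 4.5e-12). Six3, a homeobox factor of indirect pathway precursors, was at least 4.37-fold higher (adjusted p = 3.8e-05), with 0.105, 0.0397 and 0.117 in the striatum, against 0.00420, 0.00578 and 0.00722 in the hippocampus. Dlx5, a homeobox factor of GABAergic precursors, had a log2 fold change of 3.17 (SE 0.20, adjusted p = 1.2e-10). Striatum replicate 2 was the lowest of its group for both Foxp2 and Six3 and the highest for Dlx5. The factors Rarb and Rxrg belong to this list and to that of retinoic acid signalling, in which a vitamin A derivative activates nuclear receptor pairs. Of 18 tested genes in the retinoic acid list, 5 were higher and 0 lower, with a median of 0.32. Rarb, the retinoic acid receptor beta, had 0.405, 0.466 and 0.562 in the striatum, against 0.0455, 0.0508 and 0.0536 in the hippocampus (log2 fold change 3.25, SE 0.23, adjusted p = 4.5e-10). Its partner Rxrg, the retinoid X receptor gamma, had 31.1, 32.9 and 28.0 in the striatum, against 3.41, 4.99 and 4.40 in the hippocampus (log2 fold change 2.86, SE 0.16, adjusted p = 2.6e-11). The other 3 were Rbp4, which carries retinol in plasma (2.48), Crabp1, which binds retinoic acid in the cytoplasm (2.22), and Rdh10, which oxidises retinol (1.49). Aldehyde dehydrogenases that complete the synthesis, Aldh1a1 and Aldh1a2, had log2 fold changes of -0.51 and 0.45 and were not called.

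Peptides, opioid receptors and cannabinoid genes were divided. Of 16 tested, 5 were higher and 2 lower, with a median of 0.12. Oprk1, the kappa opioid receptor on which dynorphin acts, had a log2 fold change of 2.93 (SE 0.31, adjusted p = 2.8e-07), and Tacr1, the receptor of substance P, 1.22 (SE 0.19, adjusted p = 5.2e-05). Lower were Oprl1, the nociceptin receptor (log2 fold change -1.49, SE 0.20, adjusted p = 5.3e-06), and Faah, which degrades anandamide (log2 fold change -1.61, SE 0.14, adjusted p = 1.9e-08). The mu and delta receptors Oprm1 and Oprd1 had log2 fold changes of -0.03 and 0.03 and were not called.

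Regulatory sequence is shown for Gpr6 and Tac1, which were among the 15 largest increases, and for Neurod6, a strongly lower hippocampal factor, because in each the 250 bases before the annotated start (RefSeq, build GRCr8) hold a motif of a factor known for activity-dependent or neuronal transcription. The motifs searched on both strands were the cAMP response element TGACGTCA, the E-box CAGATG, which NeuroD factors bind, and the EGR motif GCGGGGGCG, and matches are printed in capitals.
Gpr6: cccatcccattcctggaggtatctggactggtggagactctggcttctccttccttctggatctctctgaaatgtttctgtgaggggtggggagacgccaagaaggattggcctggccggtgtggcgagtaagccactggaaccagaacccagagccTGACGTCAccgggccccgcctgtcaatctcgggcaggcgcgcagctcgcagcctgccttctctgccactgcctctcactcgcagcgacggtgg
Tac1: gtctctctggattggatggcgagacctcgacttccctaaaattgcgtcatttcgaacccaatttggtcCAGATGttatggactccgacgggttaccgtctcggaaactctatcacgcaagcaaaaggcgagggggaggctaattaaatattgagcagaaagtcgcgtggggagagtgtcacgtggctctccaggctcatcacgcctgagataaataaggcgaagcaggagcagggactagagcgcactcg
Neurod6: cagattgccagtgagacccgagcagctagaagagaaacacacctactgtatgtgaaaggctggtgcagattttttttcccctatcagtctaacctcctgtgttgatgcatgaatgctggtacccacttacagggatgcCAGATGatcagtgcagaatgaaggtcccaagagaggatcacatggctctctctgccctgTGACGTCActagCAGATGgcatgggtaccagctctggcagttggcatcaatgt
The Gpr6 stretch (chr20:46075252-46075501, minus strand) holds the cAMP response element at position -93 from the start, that of Tac1 (chr4:36645333-36645582, plus strand) the E-box at position -182, and that of Neurod6 (chr4:86180156-86180405, minus strand) a cAMP response element at -53 and E-boxes at -112 and -41. The 3 motifs do not overlap there. Promoters were matched for 10587 of the 13016 tested genes. The cAMP response element occurred in 1.49% of the 471 promoters of higher genes and in 2.07% of the 483 of lower genes, against 2.57% of all tested genes and 1.68% of all promoters in the table. For the E-box these shares were 14.4%, 12.8%, 10.2% and 13.7%, and for the EGR motif 4.46%, 5.38%, 4.43% and 2.48%. Matches describe letters in this window and were not tested as sites.

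On the other side, the 15 largest decreases in the striatum included a protease, transcription factors, ion exchangers and receptors. Klk8, the secreted protease neuropsin, had 0.0245, 0.105 and 0.0217 relative signal in the striatum, against 8.47, 7.03 and 7.87 in the hippocampus, a log2 fold change of -7.66 (SE 0.52, adjusted p = 3.1e-10). Neurod1, a helix-loop-helix factor of granule cells, had 0.0656, 0.111 and 0.0270 in the striatum, against 3.09, 2.92 and 2.67 in the hippocampus (log2 fold change -5.64, SE 0.44, adjusted p = 2.5e-09). Slc9a4 and Slc9a2 encode sodium-proton exchangers of the plasma membrane. Slc9a4 was at least 21.9-fold lower in the striatum, with 0.0100, 0.00688 and 0.00551, against 0.537, 0.464 and 0.381 in the hippocampus (adjusted p = 3.6e-12). Slc9a2 had 0.209, 0.274 and 0.165 in the striatum, against 6.76, 6.05 and 5.95 in the hippocampus (log2 fold change -4.89, SE 0.19, adjusted p = 1.1e-13). Each of the striatum pools was below each hippocampus pool for these genes, which was a condition for being chosen among the 15. Ntf3, the neurotrophin NT-3, was at least 31.6-fold lower (adjusted p = 1.8e-10), and Chst9, a sulfotransferase of glycan chains, at least 28.3-fold lower (adjusted p = 4.8e-12). Adra1d, the alpha-1D adrenergic receptor, had 0.740, 0.859 and 0.437 in the striatum, against 15.0, 13.8 and 13.7 in the hippocampus (log2 fold change -4.44, SE 0.23, adjusted p = 4.5e-12). Wnt4, a secreted Wnt ligand, had a log2 fold change of -4.28 (SE 0.21, adjusted p = 3.4e-12), and Rspo2, which amplifies Wnt signals, -4.24 (SE 0.44, adjusted p = 1.9e-07).

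Some of the 15 largest decreases rested on dim striatal signals. Trhr, the receptor of thyrotropin-releasing hormone, was at least 7.03-fold lower (adjusted p = 2.9e-07), Tekt5, a tektin of microtubules, at least 5.55-fold lower (adjusted p = 2.6e-13), and Mx1, an interferon-induced GTPase, at least 10.2-fold lower (adjusted p = 8.8e-07). The calls of these 3 ended with normexp background correction, another way of removing background. Cxcr1, a chemokine receptor that the array design names Il8ra, had a log2 fold change of -5.08, and Thpol1, which it names Thpo (thrombopoietin), one of -4.31.

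Transcription factors of the hippocampus and pallium were lower in 14 of 24 tested cases and higher in 1, with a median of -1.15. Neurod6 had 1.19, 0.900 and 0.557 relative signal in the striatum, against 11.7, 12.6 and 9.00 in the hippocampus (log2 fold change -3.71, SE 0.24, adjusted p = 2.0e-10), and Neurod2 0.798, 1.17 and 0.430 in the striatum, against 6.51, 7.41 and 7.33 in the hippocampus (log2 fold change -3.26, SE 0.26, adjusted p = 3.3e-09). Both factors had their lowest value in striatum replicate 3. Fezf2, a zinc finger factor of pallial projection neurons, had a log2 fold change of -2.35 (SE 0.17, adjusted p = 6.6e-10), and Zbtb18, a repressor in cortical precursors, -1.91. Emx1, a homeobox factor of the pallium, was at least 2.30-fold lower (adjusted p = 1.2e-08). With normexp correction its sign turned (0.38), beside a median of 0.38 over all tested probes there. Prox1, the factor that defines granule cells, was dim in both regions, with 0.0281, 0.00546 and 0.00428 in the striatum, against 0.0398, 0.0316 and 0.0260 in the hippocampus (log2 fold change -1.88, SE 0.62, adjusted p = 0.027), its groups overlapped, and its call ended in 7 of 19 alternatives, with a turned sign under normexp correction (0.68). The single higher gene was Id4, an inhibitor of helix-loop-helix factors (1.12), whose call ended with quantile and normexp normalization, with array weights and without striatum replicate 2. With normexp correction 9 genes of this list were lower and 0 higher.

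Genes that mark the fields of the hippocampus were lower in 10 of 21 tested cases and higher in 2, with a median of -0.99. Cpne7 and Cpne4 encode copines, calcium-dependent membrane binding proteins. Cpne4 had 0.940, 1.41 and 0.846 relative signal in the striatum, against 12.5, 12.1 and 13.3 in the hippocampus (log2 fold change -3.60, SE 0.18, adjusted p = 3.6e-12), and Cpne7 had a log2 fold change of -3.98 (SE 0.20, adjusted p = 4.5e-12). Ccn3, a matricellular protein that the array design names Nov, had -2.78 (SE 0.21, adjusted p = 1.3e-08), Trpc6, a cation channel, -2.44, Dkk3, a secreted protein of the Dickkopf family, -1.91, and Fibcd1, a chitin receptor of CA1, -1.80. The 2 higher genes were Coch, a secreted protein of the inner ear (3.69, 3.87 and 4.09 in the striatum, against 0.170, 0.370 and 0.236 in the hippocampus), and Pcp4, a calmodulin regulator of CA2 that medium spiny neurons also express (192, 218 and 186 in the striatum, against 43.8, 47.6 and 41.4 in the hippocampus). Their log2 fold changes were 3.98 (SE 0.40, adjusted p = 1.4e-07) and 2.16 (SE 0.16, adjusted p = 1.4e-09).

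**Figure D3:**
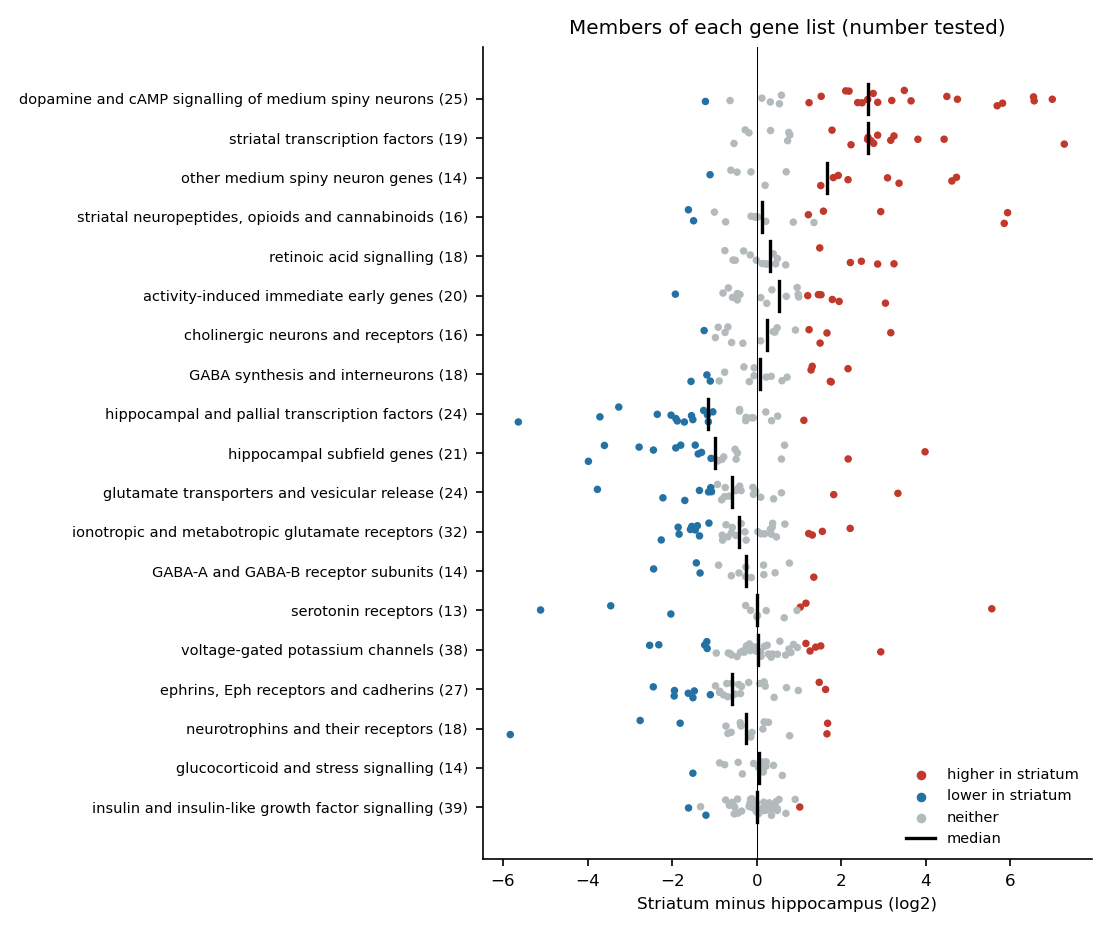
Log2 difference of striatum and hippocampus (horizontal axis) for every tested member of 19 gene lists (rows, number tested in brackets), red where called higher, blue where called lower and grey where not called, with a black bar at the list's median. Medians run from 2.63 in dopamine and cAMP signalling to -1.15 in hippocampal and pallial transcription factors, and the insulin list lies at 0.00.

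Glutamate release and its receptors were lower for a part of their genes. Of 24 transporters and vesicle proteins 7 were lower and 2 higher (median -0.58). Slc17a7, the vesicular glutamate transporter VGLUT1, had 0.0538, 0.0427 and 0.0270 relative signal in the striatum, against 0.521, 0.578 and 0.519 in the hippocampus (log2 fold change -3.77, SE 0.19, adjusted p = 4.5e-12), and Slc17a6, VGLUT2, 0.844, 0.588 and 0.485 in the striatum, against 2.50, 3.06 and 3.16 in the hippocampus (log2 fold change -2.22, SE 0.42, adjusted p = 0.00033). The synapsins Syn1 and Syn2, which tether vesicles, had log2 fold changes of -1.70 and -1.14, the release protein Stx1a -1.35 and the neuronal transporter Slc1a1 -1.09. The call of Stx1a ended without striatum replicate 2 and with normexp correction, and that of Syn2 without striatum replicate 3. Higher were Sv2c, a vesicle protein of the basal ganglia, by at least 9.70-fold (adjusted p = 1.3e-06), and the calcium sensor Syt2 (1.82). Without striatum replicate 2, 5 genes of this list were lower.

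Of 32 glutamate receptor genes and their auxiliary subunits, 9 were lower and 4 higher (median -0.43). The lower ones included Grm6 (-2.26) and Grm2 (-1.86), metabotropic receptors, Cacng8, an AMPA receptor auxiliary subunit (-1.83), Grin2a, an NMDA receptor subunit (-1.57), and Grik4, a kainate receptor subunit of CA3 (-1.45). For Gria4, an AMPA receptor subunit (-1.53), a second probe had 0.16 and was not called. Neto2, an auxiliary subunit of kainate receptors, was higher, with 11.7, 12.5 and 11.7 in the striatum, against 2.60, 2.54 and 2.61 in the hippocampus (log2 fold change 2.21, SE 0.14, adjusted p = 1.5e-10), as were, among others, Grm4 (1.55) and Cacng4 (1.23). With normexp correction the median of this list was 0.08, beside 0.38 over all tested probes there, with 6 lower and 3 higher genes.

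Inhibitory transmission differed by component. The enzymes and the transporter that load GABA were higher, with Slc32a1, the vesicular transporter, at 17.9, 28.8 and 21.0 in the striatum, against 4.74, 5.65 and 4.53 in the hippocampus (log2 fold change 2.16, SE 0.19, adjusted p = 1.5e-08), and the synthesizing enzymes Gad2 and Gad1 at log2 fold changes of 1.31 and 1.29 (adjusted p = 7.1e-06 and 1.1e-05). Npy, a peptide of interneurons, had 53.6, 64.1 and 45.7 in the striatum, against 17.8, 15.5 and 15.2 in the hippocampus (log2 fold change 1.74, SE 0.16, adjusted p = 8.3e-08), and the lysosome-associated protein Lamp5 1.76. Other interneuron genes were lower, namely the peptides Vip (log2 fold change -1.55, SE 0.28, adjusted p = 0.00022) and Cck (log2 fold change -1.10, SE 0.19, adjusted p = 0.00014) and the calcium binding protein Calb2 (log2 fold change -1.18, SE 0.32, adjusted p = 0.007). The call of Cck ended without striatum replicate 3, where it had 9.33 relative signal beside 18.6 and 18.7 in the other striatum pools. In all, 5 of the 18 tested genes were higher and 3 lower, and parvalbumin and somatostatin (Pvalb -0.17, Sst 0.34) were not called. Among 14 GABA receptor subunits, Gabrd, the delta subunit of tonic inhibition, was higher (log2 fold change 1.35, SE 0.14, adjusted p = 1.9e-07). This single higher gene stands beside 4.65% over all genes. Lower were Gabra5, the alpha-5 subunit known for its abundance in the hippocampus, with 0.291, 0.337 and 0.311 in the striatum, against 1.67, 1.81 and 1.61 in the hippocampus (log2 fold change -2.44, SE 0.13, adjusted p = 7.3e-12), Gabbr2 of the GABA-B receptor (-1.43) and Gabrb1 (-1.34).

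Serotonin receptors split by subtype, with 3 of 13 tested genes higher and 3 lower (median 0.02), beside 4.65% and 4.92% over all genes. Besides Htr1d, Htr2a (log2 fold change 1.16, SE 0.28, adjusted p = 0.0034) and Htr1f (log2 fold change 1.03, SE 0.31, adjusted p = 0.014) were higher, and the call of Htr1f ended in 4 of 19 alternatives. Htr5b was lower, with 0.0726, 0.104 and 0.0466 relative signal in the striatum, against 2.64, 2.60 and 2.11 in the hippocampus (log2 fold change -5.11, SE 0.24, adjusted p = 1.2e-12). Htr1a, the inhibitory receptor on principal cells, was at least 7.53-fold lower (adjusted p = 5.4e-10), and Htr7 had -2.03 (SE 0.18, adjusted p = 2.5e-08), while its second probe had -0.04.

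Of 38 voltage-gated potassium channel genes, 5 were higher and 5 lower (median 0.04), beside 4.65% and 4.92% over all genes. With normexp correction 3 were lower. Kcna5 (log2 fold change 2.93, SE 0.18, adjusted p = 7.1e-11), Kcnh4 (log2 fold change 1.52, SE 0.30, adjusted p = 0.00063), the silent subunits Kcnf1 (1.40) and Kcns2 (1.16) and the auxiliary subunit Kcnab1 (1.26) were higher. Lower were the silent subunits Kcng2 (log2 fold change -2.53, SE 0.15, adjusted p = 2.6e-11) and Kcns3 (log2 fold change -2.31, SE 0.15, adjusted p = 1.5e-10), the auxiliary subunits Kcnab2 (-1.23) and Kcnip4 (-1.18), and Kcnc2 (-1.17), whose call ended with normexp correction.

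Of 16 tested genes of cholinergic neurons and acetylcholine receptors, 4 were higher and 1 was lower (median 0.24). With normexp correction 2 were higher (median 0.89), and without striatum replicate 2 there were 2 lower. Slc18a3, the vesicular acetylcholine transporter, had 1.54, 2.75 and 1.85 relative signal in the striatum, against 0.217, 0.240 and 0.206 in the hippocampus (log2 fold change 3.17, SE 0.29, adjusted p = 2.4e-08). Slc5a7, the choline transporter, had 1.50 (SE 0.25, adjusted p = 7.5e-05), and Chrm4, a muscarinic receptor of direct pathway neurons, 1.24 (SE 0.16, adjusted p = 3.6e-06), with 0.70 for its second probe. Chat, which makes acetylcholine, had 0.48 and was not called, and Chrm3, a muscarinic receptor, was lower (log2 fold change -1.24, SE 0.11, adjusted p = 9.4e-09).

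Neurotrophins and their receptors differed in both directions. Of 18 tested genes, 3 were lower and 2 higher (median -0.26), beside 4.92% and 4.65% over all genes. Without hippocampus replicate 3 or with normexp correction 1 was higher. In addition to Ntf3, Bdnf, the neurotrophin of hippocampal plasticity, had 0.149, 0.164 and 0.0862 relative signal in the striatum, against 0.867, 0.970 and 0.771 in the hippocampus (log2 fold change -2.76, SE 0.39, adjusted p = 1.2e-05). The 3 striatum pools lay below all hippocampus pools for both ligands, which for Ntf3 was a condition of choice. The low-affinity receptor Ngfr was higher (log2 fold change 1.68, SE 0.28, adjusted p = 9.3e-05), whereas Ntrk2 and Ntrk3 (0.21 and -0.73) were not called.

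Immediate early genes, which neurons transcribe within minutes of activity, were higher in 6 of 20 tested cases and lower in 1 (median 0.53). Egr2 had 2.11, 4.56 and 2.26 relative signal in the striatum, against 0.323, 0.435 and 0.276 in the hippocampus (log2 fold change 3.04, SE 0.31, adjusted p = 1.4e-07), Egr1 17.1, 28.2 and 20.1 in the striatum, against 6.58, 6.69 and 5.34 in the hippocampus (log2 fold change 1.79, SE 0.17, adjusted p = 3.7e-08), and Egr4 15.1 and 26.9 on striatum replicates 1 and 2 (replicate 3 was left out as an outlier spot), against 5.17, 6.34 and 4.35 in the hippocampus (log2 fold change 1.95, SE 0.21, adjusted p = 1.3e-06). Striatum replicate 2 was the highest for all of these zinc finger factors. Nr4a1, a nuclear receptor, had 1.52, the phosphatase Dusp1 1.46 and Fos 1.21. Nr4a3, of the same family as Nr4a1, was lower (log2 fold change -1.92, SE 0.24, adjusted p = 3.2e-06), with -1.29 and -0.75 for its other probes. Without striatum replicate 2, 7 genes of the list were higher and 1 lower.

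Of 14 genes of neurogenesis and cell division, 3 were higher and 2 lower (median -0.13), with 1 lower without striatum replicate 2 and with normexp correction, where the median was 0.19. The mitotic genes Cdk1 (log2 fold change 1.61, SE 0.17, adjusted p = 1.8e-07) and Top2a (log2 fold change 1.41, SE 0.33, adjusted p = 0.0022) and Igfbpl1, a gene of immature neurons (log2 fold change 1.47, SE 0.48, adjusted p = 0.024), were higher, and the call of Igfbpl1 ended in 5 of 19 alternatives. The lower genes were Neurod1 and Prox1, while Dcx, doublecortin, had -0.69 and was not called. Of 27 ephrins, Eph receptors and cadherins, which guide axons and hold synapses, 7 were lower and 2 higher (median -0.59). Over all genes these shares were 4.92% and 4.65%. With normexp correction 4 were lower (median 0.13, beside 0.38 over all tested probes there). Epha6 had 0.145, 0.137 and 0.147 relative signal in the striatum, against 0.793, 0.844 and 0.704 in the hippocampus (log2 fold change -2.44, SE 0.12, adjusted p = 1.9e-12), and Epha5, Epha7, Efna3, Ephb2 and Cdh12 had -1.95, -1.48, -1.62, -1.94 and -1.51. Under normexp correction the signs of Ephb2 and Cdh12 turned (0.13 and 0.61), both being dim in the striatum. Higher were Cdh6 (1.63) and Ephb1 (1.48), and a second probe of Ephb1 had 0.81 and was not called.

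Of 39 tested genes of insulin and insulin-like growth factor signalling, 1 was higher and 2 were lower, near the 4.65% and 4.92% over all genes, and the median was 0.00, so these counts do not set the list apart. Insr, the insulin receptor, was dim, with 0.0323, 0.0273 and 0.0304 relative signal in the striatum, against 0.0237, 0.0184 and 0.0205 in the hippocampus, a log2 fold change of 0.53 (SE 0.15, adjusted p = 0.0097) under the 2-fold limit. It was well above background on 2 of 3 striatum arrays and 1 of 3 hippocampus arrays. Ins2, an insulin gene, had 0.0556, 0.128 and 0.0621 in the striatum, against 0.129, 0.122 and 0.129 in the hippocampus (log2 fold change -0.73, SE 0.38, adjusted p = 0.16), and its groups overlapped. The higher gene was Grb10, an adaptor that dampens insulin receptor signalling (log2 fold change 1.02, SE 0.13, adjusted p = 5.2e-06), whose other probes had between 0.44 and 0.92 and were not called, and whose call ended in 4 of 19 alternatives, among them those without striatum replicate 2 and without hippocampus replicate 1. Igfbp3 (log2 fold change -1.61, SE 0.17, adjusted p = 3.3e-07) and Igfbp4 (log2 fold change -1.20, SE 0.17, adjusted p = 1.4e-05), secreted binding proteins of the growth factors, were lower. Other components such as Igf1r (-0.44), Irs2 (0.02), Akt1 (-0.16), Gsk3b (0.36) and Foxo1 (0.49) were not called.

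The list around the genes that the study discusses for diabetes holds genes chosen there on arrays of this series, control arrays included. Their direction is therefore not independent evidence. The list also holds Insr and Ins2, which the study names without having chosen them on its arrays. Galr1 and Galr3 were added to it here and are not named in the study's text. Of 14 tested, 4 were lower in the striatum of control rats and 0 higher (median -0.48). With normexp correction 2 were lower (median 0.06, beside 0.38 over all tested probes there). Prkce, the epsilon isoform of protein kinase C, had 1.55, 1.01 and 0.994 relative signal in the striatum, against 3.10, 4.41 and 4.15 in the hippocampus (log2 fold change -1.73, SE 0.18, adjusted p = 1.4e-07). Ucp2, a mitochondrial carrier, had 0.308, 0.206 and 0.261 in the striatum, against 0.583, 0.547 and 0.558 in the hippocampus (log2 fold change -1.14, SE 0.18, adjusted p = 5.7e-05), and its call ended without striatum replicate 2 and with normexp correction. Galr1, a galanin receptor, was well above background on 1 striatum array and had 0.00499, 0.0405 and 0.00937 in the striatum, against 0.0446, 0.0421 and 0.0377 in the hippocampus (log2 fold change -1.74, SE 0.59, adjusted p = 0.03), its groups overlapped, and its call ended in 8 of 19 alternatives, with a turned sign under normexp correction (0.43). Besides Insr and Ins2, 8 further genes were not called, with log2 fold changes of 1.12 for Galr3, 0.58 for galanin (Gal), -0.01 for Chi3l1, -0.03 for Cd47, -0.04 for Abca1, -0.39 for Ret, -0.57 for Galr2 and -0.89 for Sncg, synuclein gamma. Of 14 tested glucocorticoid and stress genes, 1 was lower and 0 higher (median 0.05), near the 4.92% and 4.65% over all genes. Nr3c2, the mineralocorticoid receptor known for its hippocampal expression, was lower, with 2.89, 3.39 and 2.78 in the striatum, against 9.06, 8.59 and 8.06 in the hippocampus (log2 fold change -1.51, SE 0.10, adjusted p = 2.8e-10), while its second probe had -0.82. The glucocorticoid receptor Nr3c1 had 0.06.

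The tissue labels were set beside defining markers. These were chosen with earlier results of these data known, so they are no independent check. Their sums follow the brightest markers of each list and compare arrays, not cell types. All 10 medium spiny neuron markers were higher in the striatum (median 5.75), with a summed relative signal of 261, 339 and 273 over the 9 complete ones, against 8.53, 8.91 and 8.89 in the hippocampus. All 8 markers of hippocampal glutamatergic neurons were lower (median -1.95), with sums of 4.31, 3.79 and 3.66 in the striatum, against 24.1, 26.1 and 21.4 in the hippocampus. Without striatum replicate 2, 5 of these 8 were called, and with normexp correction 4. Oligodendrocyte markers were higher in 4 of 12 cases and lower in 0 (median 0.93), with sums of 434, 423 and 413 in the striatum, against 275, 261 and 275 in the hippocampus. Opalin (log2 fold change 1.15, SE 0.12, adjusted p = 2.7e-07), Mbp (log2 fold change 1.11, SE 0.25, adjusted p = 0.0019), Mog (log2 fold change 1.06, SE 0.17, adjusted p = 5.8e-05) and Ermn (log2 fold change 1.04, SE 0.21, adjusted p = 0.00056), genes of myelin, were the ones called, and each call ended in 2 to 4 of 19 alternatives. Endothelial markers were called in 0 of 9 cases (median 0.64), with sums of 42.0, 49.7 and 38.6 in the striatum, against 24.2, 27.5 and 26.4 in the hippocampus. Sums of microglial markers were 52.4, 48.9 and 48.0 in the striatum, against 42.3, 33.8 and 38.6 in the hippocampus, with 0 of 10 called, and oligodendrocyte precursors gave 63.6, 73.2 and 59.9 in the striatum, against 42.9, 43.6 and 44.5 in the hippocampus, with 0 of 5 called. The part of these cell types in the results above was not tested. Astrocyte sums overlapped (152, 148 and 134 in the striatum, against 159, 149 and 156 in the hippocampus), and among the 12 markers only Gfap was called (log2 fold change -1.14, SE 0.23, adjusted p = 0.00061), an intermediate filament whose call ended without striatum replicate 2 and with array weights.

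**Figure D4:**
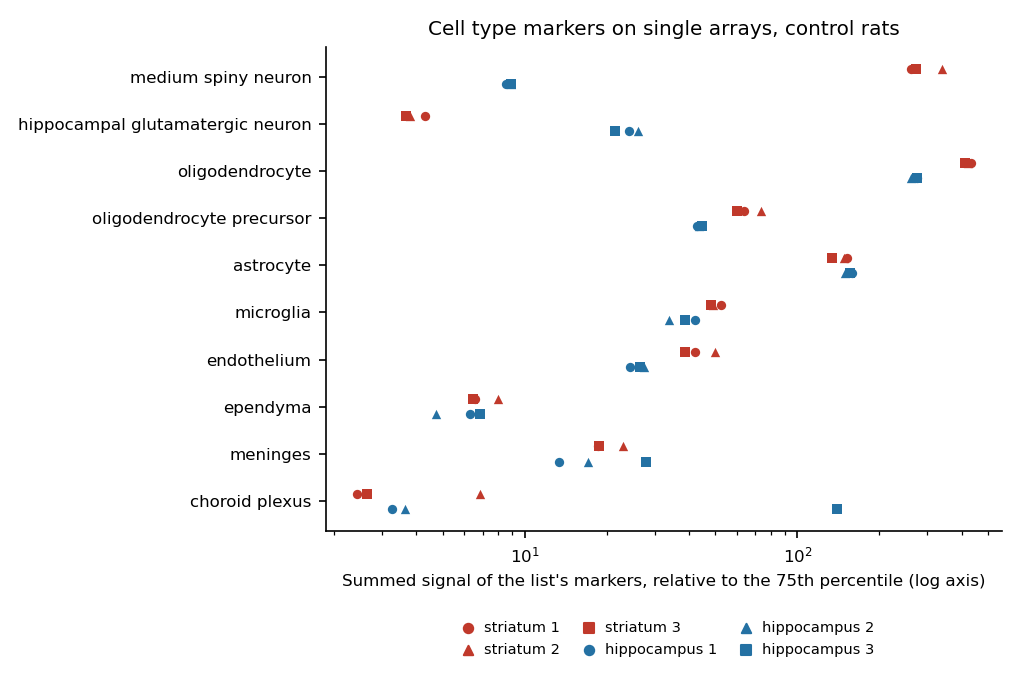
Summed signal of the markers of 10 cell types (rows) on the single arrays of control rats, relative to the 75th percentile (horizontal log axis), striatum in red above hippocampus in blue, with a symbol per replicate. Medium spiny neuron sums lie between 261 and 339 in the striatum and between 8.53 and 8.91 in the hippocampus, and choroid plexus stands at 139 on hippocampus replicate 3. Sums follow the brightest markers, so rows are not comparable with each other.

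Levels in the prefrontal cortex of the same control rats placed the differences. Among the 605 genes higher in the striatum, the cortex lay nearer to the hippocampus for 422 and nearer to the striatum for 182, and among the 641 lower genes it lay nearer to the hippocampus for 426 and nearer to the striatum for 215. Klk8 averaged 0.120 in the cortex and Htr5b 0.0584, so both were nearer to the striatum. Neurod6 averaged 5.71 in the cortex, Adra1d 9.99 and Bdnf 0.766, which put them nearer to the hippocampus. Egr1 averaged 25.6 in the cortex, above the mean of the other regions. These are descriptions of geometric means over 3 pools, with no test.

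Streptozotocin-treated and Goto-Kakizaki rats gave the same comparison in other animals and on other arrays. Goto-Kakizaki striatum lay on slide 4 and Goto-Kakizaki hippocampus on slides 2 and 3. Slide 4 also held control striatum and slide 2 control hippocampus. Calls repeated in Goto-Kakizaki rats therefore cannot tell region and slide apart. In streptozotocin-treated rats 999 probes were higher and 1296 lower in the striatum than in the hippocampus (7.38% in all), and in Goto-Kakizaki rats 2637 and 1717 (14.0%). Of the probes higher in control striatum, 686 (53.5%) were also called higher in streptozotocin-treated rats and 866 (67.5%) in Goto-Kakizaki rats. Of those lower, 934 (62.2%) and 972 (64.8%) were called lower. Probes called the same way in controls made up 70.6% of the calls in streptozotocin-treated rats and 42.2% of those in Goto-Kakizaki rats. In the opposite direction 2 probes were called in streptozotocin-treated rats and 0 in Goto-Kakizaki rats. All 3 animal groups shared 1328 calls, 583 higher and 745 lower. Penk had log2 fold changes of 5.72 in streptozotocin-treated rats and 5.25 in Goto-Kakizaki rats, beside 5.85 in controls, and Drd1 had 5.89 and 4.91, beside 5.69. Klk8 had -8.18 and -8.96, beside -7.66, and Gabra5 -2.27 and -2.84, beside -2.44. The median of the dopamine and cAMP list was 2.58 in streptozotocin-treated rats and 2.89 in Goto-Kakizaki rats, that of hippocampal and pallial transcription factors -1.40 and -0.88, and that of the insulin list 0.01 and 0.06. Not every list repeated as closely. Immediate early genes, with 6 higher and 1 lower in controls, had 3 and 3 in streptozotocin-treated and 2 and 3 in Goto-Kakizaki rats. Glutamate transporters and vesicle proteins, with 7 lower in controls, had 4 and 2 lower. Oligodendrocyte markers, with 4 higher in controls, had 0 higher in streptozotocin-treated and 6 in Goto-Kakizaki rats. Slides 1, 2, 5 and 6 each held arrays of both regions across the control and streptozotocin groups, so the mean of the control and streptozotocin differences could be fitted with the slide as a covariate, a choice made after the data were seen. This fit called 1033 probes higher and 1308 lower, against 1010 and 1274 without the slide term, and 135 of the 153 named genes called in controls were called alike in it. The other 18 were Ephb1, Cacng4, Fos, Kcns2, Opalin, Id4, Mbp, Mog, Ermn, Grb10, Lum, Slc1a1, Cck, Ucp2, Calb2, Kcnip4, Galr1 and Dcn.

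**Figure D5:**
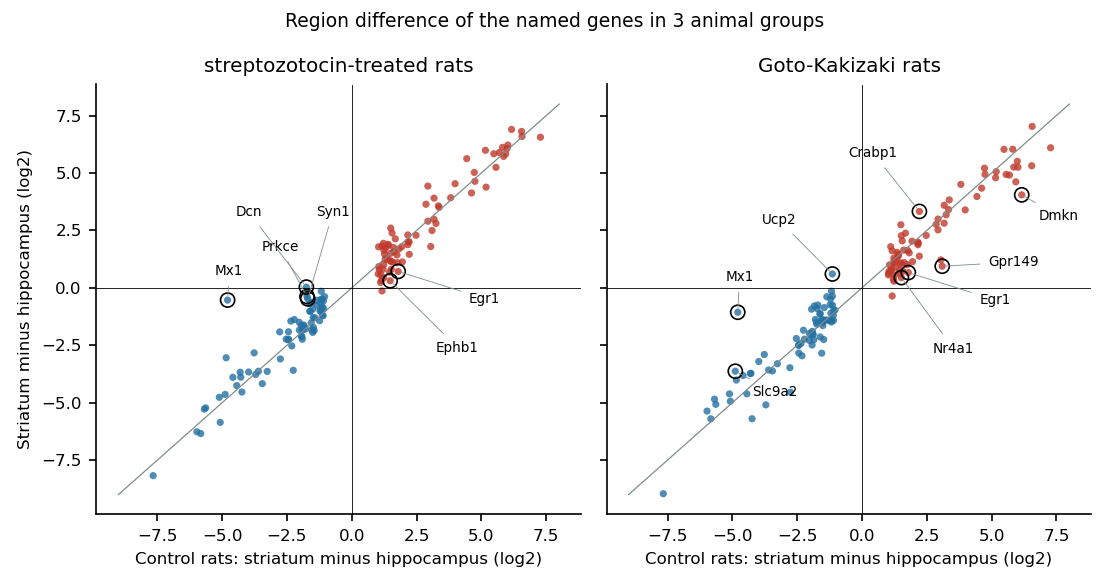
Region difference (log2, striatum minus hippocampus) of the named and called genes in streptozotocin-treated rats (left) and Goto-Kakizaki rats (right) against that in control rats (horizontal axes), with a grey line of equality. Red genes were higher and blue genes lower in control striatum, circles mark genes whose region difference differed between the animal groups, and Mx1 lies farthest from the line in both panels. In the left panel, animal group and slide cannot be told apart for the circled genes.

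The region difference in streptozotocin-treated rats departed from that in controls for 250 probes (0.804%), and that in Goto-Kakizaki rats for 113 (0.363%). Control hippocampus lay on slides 1 and 2 and control striatum on slides 4 to 6. Streptozotocin striatum lay on slides 1 to 3 and streptozotocin hippocampus on slides 5 to 7. In the streptozotocin comparison, animal group and slide can therefore not be told apart. These counts depended on single control arrays. For the streptozotocin comparison they were 557 without striatum replicate 1, 163 without striatum replicate 2, 70 without hippocampus replicate 2 and 98 without hippocampus replicate 3, and for the Goto-Kakizaki comparison 584 and 45 without striatum replicates 1 and 2 and 51, 48 and 37 without hippocampus replicates 1, 2 and 3. Mx1, the interferon-induced GTPase, had 0.0136, 0.00513 and 0.00648 relative signal in the striatum, none of it well above background, against 0.182, 0.208 and 0.253 in the hippocampus of control rats. In streptozotocin-treated rats it averaged 0.0354 in the striatum and 0.0512 in the hippocampus, and in Goto-Kakizaki rats 0.0300 in the striatum and 0.0627 in the hippocampus. Its region difference was larger in size in controls, by 4.26 (adjusted p = 0.011) and 3.73 (adjusted p = 0.033) on the log2 scale, sizes that rest on the dim control striatum. Egr1 had a log2 fold change of 0.71 in streptozotocin-treated rats and 0.66 in Goto-Kakizaki rats, beside 1.79 in controls, and the differences of -1.08 (adjusted p = 0.027) and -1.13 (adjusted p = 0.032) passed the test.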

How the data were processed

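RNA of striatum and hippocampus pools was hybridised by the authors to 1-colour Agilent rat arrays. The deposited intensity is the processed signal of Feature Extraction 9.1, background-subtracted and not scaled between arrays, and the deposited value table holds the same intensity. Each probe had a single spot on an array, so no spots were averaged. Here, spots marked as outliers were left out (462 values on the 6 control arrays), and log2 signals minus the log2 75th percentile of the array were taken. Probes were named through accessions, symbols or synonyms of RefSeq (20035 of 41012 probes, 15502 genes).

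A linear model of 9 group means over 27 arrays (18 residual and 2.65 prior degrees of freedom) came from limma, version 3.58.1, run under R 4.3.3 with the package data.table, version 1.17.8, and p-values were adjusted by Benjamini-Hochberg over all tested probes. Replicates are separate pools of animals. The fit was also run on simulated arrays with known changes. These held no slide effect, no shared animals and the same spread in every group, so the run cannot speak to those features. Sequences and figures used Python 3.11.15, pandas 2.3.3, numpy 2.4.6 and matplotlib 3.10.9. Lower bounds compare the mean of the brighter region with the mean, over the dim region's arrays, of the higher of the probe's own signal and the lowest signal that was well above background.

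Members, gene lists and tests were chosen with earlier results of these data known. Named genes were the 15 largest increases and decreases whose arrays did not overlap and up to 6 called members of each list in each direction. Where no member was called, the 2 with the smallest p-values were taken. Every tested member of the list around the genes the study discusses was also named. A gene was represented by its brightest tested probe. Alternatives covered scaling, background correction, filters, outlier spots, the arrays fitted, blocks, array weights, each left-out array and the test. Only the striatum, hippocampus and control prefrontal cortex arrays are described, and the values of a few genes are not reported here.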

Additional observations from a re-analysis of the deposited data

Results flagged for a closer look

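Groups of 3 pools were too small for a test of single outlying samples. Among the genes named by the rule, the region difference itself differed between animal groups by the interaction test (limma, adjusted p under 0.05 and at least 2-fold) for 12 of those reported here, and none of these differences was weighed further. Values are the log2 difference of striatum and hippocampus in the diabetic rats minus that in the control rats. In the streptozotocin comparison, animal group and slide cannot be told apart, since the regions changed places between the sets of slides.

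Against streptozotocin-treated rats, the difference was 4.26 for Mx1 (adjusted p = 0.011), 1.78 for the matrix proteoglycan gene Dcn (adjusted p = 0.013), 1.35 for Prkce (adjusted p = 0.011), 1.22 for Syn1 (adjusted p = 0.019), -1.08 for Egr1 (adjusted p = 0.027) and -1.17 for Ephb1 (adjusted p = 0.045). Prkce averaged 1.96 relative signal in the striatum of streptozotocin-treated rats and 2.54 in their hippocampus, against 1.55, 1.01 and 0.994 in the striatum and 3.10, 4.41 and 4.15 in the hippocampus pools of control rats. Syn1, with a control difference of -1.70, had -0.48 in streptozotocin-treated rats.

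Against Goto-Kakizaki rats, it was 3.73 for Mx1 (adjusted p = 0.033), 1.74 for Ucp2 (adjusted p = 0.0029), 1.25 for Slc9a2 (adjusted p = 0.035), 1.11 for Crabp1 (adjusted p = 0.035), -1.08 for Nr4a1 (adjusted p = 0.025), -1.13 for Egr1 (adjusted p = 0.032), -2.11 for Dmkn (adjusted p = 0.0027) and -2.15 for Gpr149 (adjusted p = 8.9e-05). Gpr149 averaged 1.07 in the striatum of Goto-Kakizaki rats and 0.560 in their hippocampus, against 4.22, 5.56 and 5.36 in the striatum and 0.633, 0.590 and 0.541 in the hippocampus pools of control rats. Dmkn averaged 10.6 in the striatum of Goto-Kakizaki rats and 0.643 in their hippocampus, against 10.5, 11.8 and 10.7 in the striatum and 0.112, 0.146 and 0.221 in the hippocampus pools of control rats. Ucp2 had a region difference of 0.60 in Goto-Kakizaki rats, beside -1.14 in controls.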

How the results depend on the processing

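With normexp background correction, which moved the median log2 fold change of all probes to 0.38, 1528 probes were higher (70.8% of the calls, against 46.1%) and 629 lower in control striatum, 887 were called alike in streptozotocin-treated rats, and 15 and 3 were called for the region difference in streptozotocin-treated and Goto-Kakizaki rats minus that in controls. Signs turned there for Lum (0.14), Ephb2 (0.13), Cdh12 (0.61), Emx1 (0.38), Galr1 (0.43) and Prox1 (0.68). Without a fold threshold 5416 probes were higher and 3921 lower, 4581 and 6095 were called alike in streptozotocin-treated and Goto-Kakizaki rats, and 563 and 247 for the 2 region differences between animal groups. The methods' t-test with adjustment called 463 higher and 461 lower, and 1164 and 1249 without adjustment. Array weights gave 1337 and 252 for the region differences between animal groups, and scaling to the 50th percentile gave 273 for Goto-Kakizaki rats. With the replicate number as a block (replicate block), 1322 probes were higher and 1585 lower, and the region differences between animal groups gave 166 and 70. Same-numbered striatum and hippocampus arrays deviated together with correlations of -0.06, 0.00 and 0.08, and only replicate 3 correlated best with its own number, so the numbers were not taken to pair the pools. Leaving out 1 control array at a time gave 1260 to 1413 higher and 1410 to 1862 lower probes, 1585 to 1622 and 1767 to 2141 calls alike in streptozotocin-treated and Goto-Kakizaki rats, and 70 to 557 and 37 to 584 region differences between animal groups.

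All other alternatives run left these counts within 1.5 times, and the deposited value table, run for the control comparison alone, gave identical ones there. Of the 153 named genes called, 117 were called in every alternative, 29 lost the call with normexp correction, 4 when the 2 groups were fitted alone and 20 in 1 or more fits that left out an array. The slide as a fixed covariate could not be fitted for a single animal group. Of 68 counts over gene lists, 68 stayed within 1.5 times with the 50th percentile, 65 with quantile normalization, 54 with normexp correction, 67 with a filter on all 3 arrays, 67 with the mean of all probes of a gene, 59 without striatum replicate 2 and 66 without hippocampus replicate 3, the settings for lists that left out an array having been chosen after the data were seen. The causes were not tested. Depth here means signal over background, and only 3 pools per region stand behind every control difference. The errors given rest on 1 spread per probe, shared by the 9 groups. The median SD itself was 0.261 among striatum and 0.113 among hippocampus control arrays.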

Other observations

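Over all genes 4.65% were higher and 4.92% lower, beside which the short marker lists of neighbouring tissues stand. Meningeal markers were lower in 2 of 10 cases and higher in 0 (median 0.34), with summed relative signals between 18.6 and 22.8 in the striatum, against 13.4 to 27.8 in the hippocampus. The lower ones were Dcn (log2 fold change -1.75, SE 0.24, adjusted p = 7.1e-06), with 0.914, 0.894 and 0.841 in the striatum, against 1.89, 3.93 and 3.54 in the hippocampus, and Lum (log2 fold change -1.05, SE 0.25, adjusted p = 0.0025), both small proteoglycans of connective tissue. The sign of Lum turned with normexp correction (0.14, beside a median of 0.38 over all tested probes there). Neither gene was called in the mean of controls and streptozotocin-treated rats with the slide as a covariate. Without striatum replicate 2 the list held 1 lower gene, and without hippocampus replicate 3 it held 1 higher gene. Markers of cortical layers gave 1 higher (Lamp5) and 1 lower (Fezf2) of 9, and thalamic markers 1 higher (Prkcd, log2 fold change 1.23, SE 0.20, adjusted p = 5.4e-05) and 1 lower (Slc17a6) of 6. Ependymal markers were called in 0 of 5 cases, with sums of 6.57, 7.96 and 6.44 in the striatum, against 6.28, 4.73 and 6.82 in the hippocampus, and blood markers in 0 of 3. Choroid plexus markers, with a median of -1.73 in control rats, had a median of -0.12 without hippocampus replicate 3, 0.51 in streptozotocin-treated rats and -2.76 in Goto-Kakizaki rats, where 9 of 10 were called lower in the striatum.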
